A study of Mus musculus with 12 samples.

Results

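The T cell receptor complex and its proximal signalling apparatus were followed here through 10 genes, chosen by gene symbol from the 55450 genes listed for each library: Cd3d, Cd3e, Cd3g, Cd247, Cd8a, Cd8b1, Thy1, Lck, Zap70 and Lat. The values measured did not enter the choice of these symbols, although the set was proposed with earlier results of these libraries known. All 10 were found in every library and all 10 passed the filter on low counts that left 13636 genes for testing. Their counts ran from 3505 for Lat to 37687 for Thy1 in a library.

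The antigen-binding alpha and beta chains of the T cell receptor have very short cytoplasmic tails and signal through the CD3 gamma, delta and epsilon chains (Cd3g, Cd3d, Cd3e) and the zeta chain (Cd247), whose tails carry tyrosine motifs. On CD8 T cells, the coreceptor formed by CD8 alpha and CD8 beta (Cd8a, Cd8b1) binds MHC class I and brings the kinase Lck to the complex. Lck phosphorylates the tyrosine motifs, the kinase Zap70 docks on them, and Zap70 then phosphorylates the membrane adaptor Lat, which gathers the enzymes of the calcium and Ras branches. Thy1 is a lipid-anchored surface glycoprotein that is abundant on mouse T cells.

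The cells were CD8 T cells of pmel-1 mice, which carry a transgenic T cell receptor for a peptide of the melanoma antigen gp100, and they were wild type for Ucp2, a mitochondrial carrier protein. The 4 groups of 3 libraries were genipin, genipin with NAC, NAC alone and vehicle, which was culture medium. Genipin is a compound of gardenia fruit that serves as an inhibitor of Ucp2, and NAC (N-acetylcysteine) is an antioxidant and a source of cysteine. All groups shared receptor stimulation followed by growth over 4 days with 10 ng/ml of IL-2. The labels name the peptide (1 μM) or plate-bound antibody to CD3 (2 μg/ml) with soluble antibody to CD28 (1 μg/ml) as the stimulus, without saying which of these the libraries had, and they give neither the doses of the compounds nor the ages of the mice. Since the receptor in these cells is a transgene and the cells had been stimulated through it, the levels describe expanded transgenic effector cultures and not resting T cells. The labels also do not say whether replicates came from separate mice or cultures, so p values measure the spread between libraries, which may be technical.

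Each library held between 20838894 and 31098648 expected counts. The spread between replicates of a group was small, with a common biological coefficient of variation of 0.0393. The labelled cell type matched its markers: Cd8a had 8778 to 21966 counts per library, whereas Cd4 had 4 to 138 and the B cell markers Ms4a1 and Pax5 each had at most 2. The plasmacytoid dendritic cell marker Siglech and the granulocyte markers Elane and S100a8 were at 0 counts in all 12 libraries. The summed level of 6 natural killer cell markers, of which 5 passed the filter, was 97.2 to 108 CPM (counts relative to the scaled library total) in genipin libraries, 24.6 to 26.8 CPM with both compounds, 10.3 to 11.1 CPM with NAC alone and 42.3 to 44.2 CPM in vehicle, led by Fcer1g, with the natural killer receptor gene Ncr1 at 2.10 CPM in genipin libraries and at 0 with NAC alone. The 4 CD4 T cell markers, 2 of them tested, summed to 38.6 to 42.2 CPM in genipin libraries, 52.0 to 61.8 CPM with both compounds, 65.2 to 69.7 CPM with NAC alone and 39.9 to 43.5 CPM in vehicle, nearly all of it Zbtb7b. The sums of the other lists also differed between groups. The 6 macrophage and monocyte markers, 2 of them tested, summed to 7.27 to 8.24 CPM with genipin, 40.3 to 43.4 CPM with genipin+NAC, 11.7 to 13.9 CPM with NAC and 8.88 to 11.4 CPM in vehicle, led by Itgam. The 8 granulocyte and mast cell markers, 2 of them tested, summed to 28.5 to 30.5 CPM with genipin, 16.5 to 19.0 CPM with genipin+NAC, 4.00 to 5.06 CPM with NAC and 13.2 to 14.9 CPM in vehicle, led by Cpa3 over all libraries and by Mcpt8 with genipin. The 5 dendritic cell markers, 3 of them tested, summed to 19.6 to 24.2 CPM with genipin, 29.7 to 32.8 CPM with genipin+NAC, 9.89 to 11.4 CPM with NAC and 15.6 to 16.9 CPM in vehicle, led by Itgax. The 4 gamma-delta T cell markers, 3 of them tested, summed to 15.6 to 15.7 CPM with genipin, 15.8 to 18.4 CPM with genipin+NAC, 27.0 to 29.0 CPM with NAC and 15.2 to 16.6 CPM in vehicle, led by Trdc. For the B cell list, of which Cd79b led and 2 genes were tested, the sums were 2.37 to 3.35 CPM with genipin, 5.98 to 7.87 CPM with genipin+NAC, 9.74 to 12.1 CPM with NAC and 3.53 to 4.05 CPM in vehicle. The part of these other-cell markers in the results that follow was not tested. In bulk RNA, fewer cells of a type and less RNA per cell cannot be told apart.

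Replicate 1 of genipin+NAC stood apart from the other 2 libraries of its group. Its chi-square per degree of freedom over genes was 6.95 against replicate 2 and 8.07 against replicate 3, whereas replicates 2 and 3 differed by 2.08 and the pairs within other groups by 2.18 to 2.92. It had the lowest Zap70, Lck, Lat, Cd247, Thy1 and Cd8b1 of its group, and the highest Cd3g, Cd3d and Cd8a (918, 618 and 679.6 CPM). The calls of Cd3g, Cd3d and Cd8a with genipin+NAC against vehicle held without it. Values without it are given beside each result whose call it changed.

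Against vehicle, 9 of the 10 genes were called with genipin, 6 with genipin+NAC and 9 with NAC. The genes called and their directions differed between treatments. With genipin alone 6 genes were higher and 3 lower, with genipin+NAC 6 were higher and none lower, and with NAC alone 3 were higher and 6 lower. These counts are to be read against all 13636 genes tested, called with edgeR's quasi-likelihood test at an adjusted p under 0.05. The share of all genes called was 61.0% for genipin (29.9% higher and 31.0% lower) against vehicle. It was 57.4% for genipin+NAC (28.5% and 28.9%) and 59.6% for NAC (29.6% and 30.0%). These shares depend on the level of the genes counted, and all 10 genes lay above 5 CPM in every library. With a filter at a mean of 5 CPM, which left 9927 genes, the shares were 69.8%, 65.7% and 66.5% in the same order. In the other comparisons, given below, they were 62.2% to 77.4% with that filter. The count of 6 of 10 with genipin+NAC lies near its share. The median absolute log2 fold change of the 10 genes was 0.10 for genipin, 0.19 for genipin+NAC and 0.28 for NAC, beside 0.28, 0.26 and 0.27 over all genes tested. A change of at least 1.5-fold was reached by none of them with genipin alone, by Cd8b1 with genipin+NAC and by Cd8a with NAC alone, where 19.3%, 16.3% and 19.3% of all genes reached it. Without genipin+NAC replicate 1, Thy1 also passed the test for genipin+NAC against vehicle, at 0.061 (edgeR adjusted p = 0.0315), and Lck was called lower there without genipin+NAC replicate 3, at -0.10 (edgeR adjusted p = 0.0164).

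Fold changes depend on the scale on which libraries are set equal. On the deposited TPM (abundance per transcript length) scale the median of all genes tested lay at 0.093 for genipin, 0.052 for genipin+NAC and 0.15 for NAC against vehicle, whereas it was -0.0079, 0.0048 and -0.0053 on the TMM scale used for the tests. Values given below relative to the median gene on the TPM scale share the premise of TMM, a median gene near 0. They are therefore not separate support for the TMM values, and which scale is right was not tested. With TPM, limma called 7 of the 10 genes higher and 1 lower with genipin, 8 higher and none lower with genipin+NAC, and 4 higher and 3 lower with NAC. Without normalization factors edgeR called 7 and 1, 7 and 0, and 4 and 4. In the same order, the share of all genes called was 54.3%, 46.8% and 54.9% with TPM. It was 61.8%, 57.6% and 61% without normalization factors. Of all 55 calls over the 7 comparisons, 43 kept their call and direction in each of the 22 alternatives (21 for the interaction) that did not tighten the threshold. Against vehicle these were 5 of 9 with genipin, 6 of 6 with genipin+NAC and 6 of 9 with NAC.

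**Figure D1:**
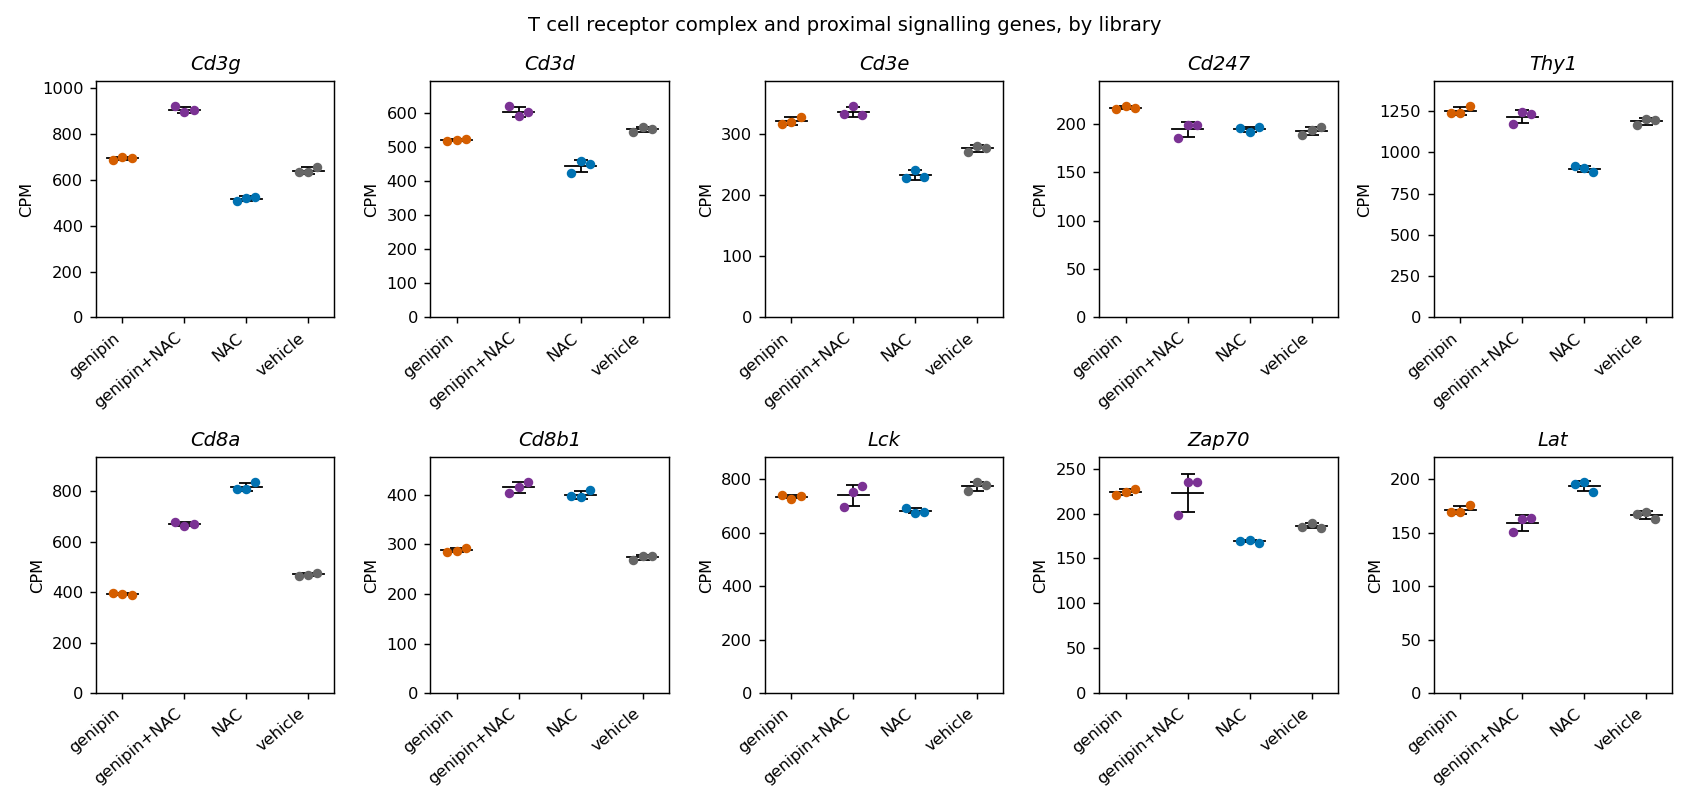
CPM of the 10 genes in each of the 12 libraries (points, 3 per group, y axes from 0), with the mean and SD of each group as black bars. Cd8a was highest with NAC alone, at 807 to 836 CPM, while Cd3g was highest with genipin+NAC, at 892 to 918 CPM.

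The CD3 chains fell with NAC alone and rose with genipin+NAC. Cd3g had 685, 698 and 695 CPM in the 3 genipin libraries, 918, 892 and 901 CPM with both compounds, 505, 522 and 525 CPM with NAC alone and 631, 631 and 655 CPM in vehicle. The groups did not overlap: every library with both compounds was above every other library, and every NAC library was below. Cd3g, which pairs with CD3 epsilon in the complex, was 0.50 ± 0.027 (edgeR adjusted p = 1.23e-12) with genipin+NAC on the log2 scale (SE), 0.11 ± 0.027 (edgeR adjusted p = 8.98e-04) with genipin and -0.31 ± 0.027 (edgeR adjusted p = 3.35e-09) with NAC. Cd3d had 517, 521 and 522 CPM in the 3 genipin libraries, 618, 589 and 602 CPM with both compounds, 423, 458 and 448 CPM with NAC alone and 543, 557 and 553 CPM in vehicle. Cd3d, the other partner of epsilon, also had 4 groups without overlap, with genipin+NAC highest and NAC lowest. Its log2 fold change was 0.13 ± 0.030 (edgeR adjusted p = 8.46e-04) with genipin+NAC and -0.31 ± 0.030 (edgeR adjusted p = 1.27e-08) with NAC alone. With genipin alone it was -0.084 ± 0.030 (edgeR adjusted p = 0.0201), a call that was lost without genipin replicate 1, vehicle replicate 2 or vehicle replicate 3 (edgeR adjusted p = 0.0649, 0.0738 and 0.0590) and whose sign turned on the TPM scale (0.053, limma adjusted p = 0.215). Relative to the median gene on that scale it was -0.040. The call was also lost without normalization factors (-0.019, edgeR adjusted p = 0.605) and with offsets for effective length.

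Cd3e had 317, 321 and 328 CPM in the 3 genipin libraries, 334, 346 and 332 CPM with both compounds, 228, 242 and 231 CPM with NAC alone and 272, 282 and 278 CPM in vehicle. In CPM, genipin+NAC libraries were highest and NAC libraries lowest, and no groups overlapped. As TPM, genipin (317 to 330) overlapped genipin+NAC (306 to 325), and NAC (234 to 253) overlapped vehicle (243 to 257). Genipin+NAC against genipin was not called for Cd3e (0.065, edgeR adjusted p = 0.0620). Cd3e, the epsilon chain present in every CD3 dimer, was 0.22 ± 0.030 (edgeR adjusted p = 2.45e-06) with genipin, 0.28 ± 0.030 (edgeR adjusted p = 7.06e-08) with genipin+NAC and -0.25 ± 0.031 (edgeR adjusted p = 6.00e-07) with NAC. The fall with NAC was not called on the TPM scale (-0.053, limma adjusted p = 0.225). Relative to the median of all genes on that scale it was -0.20. Summed over the 3 chains, the level was 1534 ± 13.9 CPM in genipin libraries, 1844 ± 23.1 CPM with both compounds, 1194 ± 34.0 CPM with NAC alone and 1467 ± 20.3 CPM in vehicle (SD, n = 3 each).

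The 3 CD3 genes lie side by side on mouse chromosome 9 (GRCm38, also called mm10). Cd3g spans chr9:44969572-44980431 on the minus strand, Cd3d spans chr9:44981786-44987339 on the plus strand and Cd3e spans chr9:44998740-45009627 on the minus strand. The annotated starts of Cd3g and Cd3d point away from each other and are 1355 bases apart, and those of Cd3d and Cd3e are 27841 bases apart. The span of Cd3e overlaps Gm48719, an antisense gene, and Gm48720 on its own strand. The strand setting of the counting is not given in the sources used here, so reads of these genes could be counted with it. Across the 12 libraries, Pearson's r of log2 CPM was 0.914 for Cd3d with Cd3g, 0.920 for Cd3e with Cd3g and 0.831 for Cd3d with Cd3e. These libraries fall into 4 treatment groups, so r describes mostly 4 group means.

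The promoters of the 3 CD3 genes and of Cd8a are shown to compare their motif content. The 3 CD3 genes moved in the same direction with NAC and with genipin+NAC against vehicle. With genipin alone Cd3d was called lower and Cd3g and Cd3e higher. Cd8a did not follow the CD3 genes with NAC alone, where it rose. RefSeq promoter entries (GRCm38.p6, 250 bases before to 50 after the start) were found for 8 of the 10 genes, all but Cd8b1 and Thy1. The motif core searched for ETS factors was AGGAAG. For RUNX factors it was TGTGGT. The E-protein box was CAGGTG. TCF factors were searched as CTTTGA. For GATA factors the letters were AGATAA. The TATA box was TATAAA. Matches are in capitals, and those on the opposite strand appear as the reverse complement. None overlapped in these 4 windows. The windows are chr9:44980382-44980681 (minus strand) for Cd3g, chr9:44981536-44981835 (plus strand) for Cd3d, chr9:45009562-45009861 (minus strand) for Cd3e and chr6:71373177-71373476 (plus strand) for Cd8a.
Cd3g: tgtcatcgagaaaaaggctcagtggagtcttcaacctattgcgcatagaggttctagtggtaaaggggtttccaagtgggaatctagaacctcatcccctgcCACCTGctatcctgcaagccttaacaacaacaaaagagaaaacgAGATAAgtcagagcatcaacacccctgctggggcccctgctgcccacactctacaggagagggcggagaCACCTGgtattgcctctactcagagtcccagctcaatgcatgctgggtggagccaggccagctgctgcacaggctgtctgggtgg
Cd3d: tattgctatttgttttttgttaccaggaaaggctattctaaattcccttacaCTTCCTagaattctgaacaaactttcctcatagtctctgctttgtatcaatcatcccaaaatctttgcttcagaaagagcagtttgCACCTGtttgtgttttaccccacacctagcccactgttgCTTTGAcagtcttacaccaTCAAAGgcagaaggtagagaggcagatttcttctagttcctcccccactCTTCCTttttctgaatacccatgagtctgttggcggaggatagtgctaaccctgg
Cd3e: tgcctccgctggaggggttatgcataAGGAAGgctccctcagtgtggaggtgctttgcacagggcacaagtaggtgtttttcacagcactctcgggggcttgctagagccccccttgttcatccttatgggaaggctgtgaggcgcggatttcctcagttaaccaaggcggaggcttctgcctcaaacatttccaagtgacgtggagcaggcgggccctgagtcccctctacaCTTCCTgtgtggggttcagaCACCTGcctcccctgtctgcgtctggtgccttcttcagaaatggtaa
Cd8a: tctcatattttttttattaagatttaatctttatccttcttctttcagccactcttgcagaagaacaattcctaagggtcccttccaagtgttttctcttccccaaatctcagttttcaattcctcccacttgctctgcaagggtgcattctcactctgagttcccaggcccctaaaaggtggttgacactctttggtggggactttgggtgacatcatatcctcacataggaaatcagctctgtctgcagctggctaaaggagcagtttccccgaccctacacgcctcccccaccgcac
All 3 CD3 windows held CAGGTG, which 20.2% of the 32851 mouse promoters in the table hold and which was found in 8 of 11 promoter entries of the 10 genes. Cd3d and Cd3e also held AGGAAG, a core found in 35.4% of all promoters and in 8 of the 11 entries. Cd3g alone of the 8 genes held AGATAA, which 11.2% of all promoters hold. The Cd8a window held none of the 6 cores. These letter matches describe the windows only and say nothing on whether a factor binds there.

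The zeta chain did not follow the other CD3 chains. Cd247 had 215, 218 and 216 CPM in the 3 genipin libraries, 185, 199 and 198 CPM with both compounds, 196, 191 and 196 CPM with NAC alone and 188, 193 and 197 CPM in vehicle. Genipin libraries were above all others, and the other 3 groups overlapped. Cd247 rose by 0.17 ± 0.031 on the log2 scale with genipin (edgeR adjusted p = 9.51e-05) and was 0.011 ± 0.032 (edgeR adjusted p = 0.779) with genipin+NAC and 0.013 ± 0.032 (edgeR adjusted p = 0.754) with NAC, neither of which was called on the TMM scale. With TPM these were called higher, at 0.074 and 0.21 (limma adjusted p = 0.0467 and 5.82e-05), and relative to the median gene there they were 0.022 and 0.063. Without normalization factors the NAC value was called too (0.13, edgeR adjusted p = 8.67e-04). Cd247 spans chr1:165788681-165877277 on the plus strand and overlaps 6 annotated genes, among them Pou2f1 on the minus strand, so its count has the same uncertainty of strand as that of Cd3e. The same holds for Zap70, a plus-strand gene whose span overlaps Gm18828 on the minus strand.

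Both chains of the CD8 coreceptor rose with NAC, whether or not genipin was present. Cd8a had 397, 392 and 389.6 CPM in the 3 genipin libraries, 679.6, 663 and 671 CPM with both compounds, 807, 807 and 836 CPM with NAC alone and 464, 469.6 and 477 CPM in vehicle. The 4 groups did not overlap: NAC libraries were highest, genipin+NAC libraries next and genipin libraries lowest. Cd8a was 0.80 ± 0.026 (edgeR adjusted p = 2.87e-16) with NAC, 0.51 ± 0.026 (edgeR adjusted p = 5.39e-13) with genipin+NAC and -0.26 ± 0.026 (edgeR adjusted p = 2.52e-08) with genipin, on the log2 scale. Cd8b1 had 285, 287 and 293 CPM in the 3 genipin libraries, 403, 415 and 425 CPM with both compounds, 397, 394 and 409 CPM with NAC alone and 268, 276 and 277 CPM in vehicle. All 6 libraries that had NAC were above all 6 that did not, and genipin+NAC and NAC libraries overlapped each other. Cd8b1 was 0.55 ± 0.029 (edgeR adjusted p = 8.28e-13) with NAC and 0.60 ± 0.029 (edgeR adjusted p = 2.12e-13) with genipin+NAC. With genipin it was 0.075 ± 0.029 (edgeR adjusted p = 0.0310), a call lost without vehicle replicate 1, genipin replicate 2 or genipin replicate 3 (edgeR adjusted p = 0.126, 0.0570 and 0.101), and without the filter on low counts or with a filter at a mean of 5 CPM. Cd8b1 (chr6:71322788-71337494) and Cd8a (chr6:71373427-71379173) both lie on the plus strand with starts 50639 bases apart, and their log2 CPM had r = 0.897 over the 12 libraries.

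**Figure D2:**
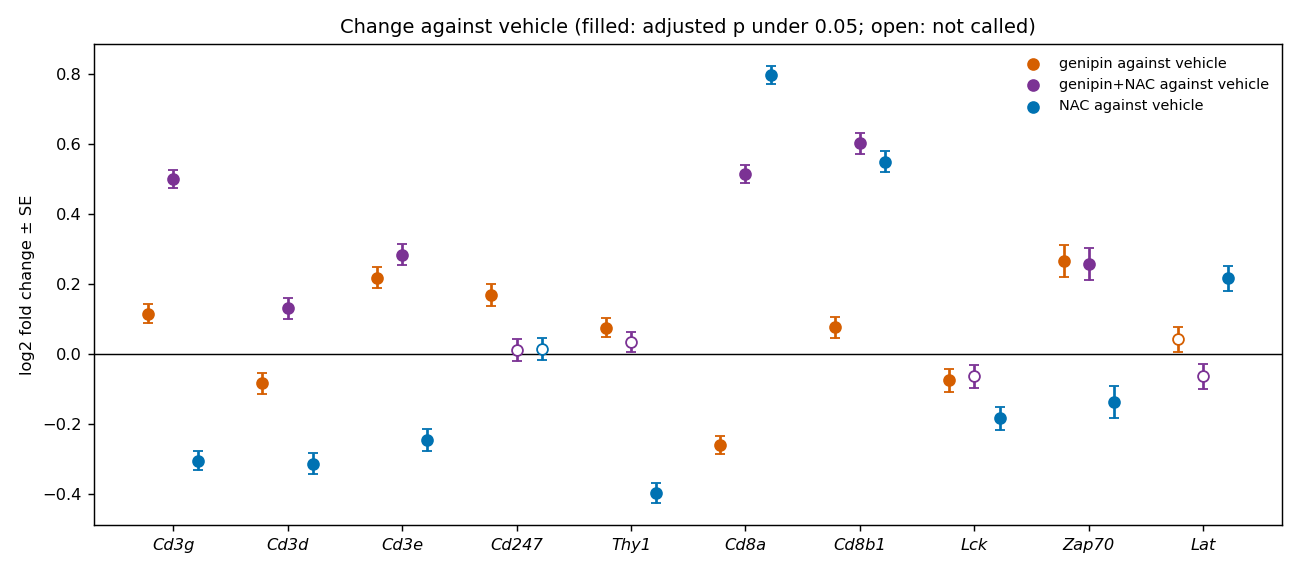
Log2 fold change ± SE of each gene with genipin, genipin+NAC and NAC against vehicle (edgeR, n = 3 libraries per group), with open points where the gene was not called. Cd8a and Cd8b1 were higher with NAC (0.80 and 0.55), and Cd3g had opposite directions with genipin+NAC (0.50) and with NAC alone (-0.31).

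Of the 2 kinases, Zap70 had the wider range between groups. Zap70 had 220.5, 224 and 227 CPM in the 3 genipin libraries, 198, 235 and 235 CPM with both compounds, 169.6, 170.4 and 168 CPM with NAC alone and 185, 189 and 184 CPM in vehicle. Genipin libraries were all above vehicle and NAC libraries all below, while genipin+NAC had the widest spread, with replicate 1 low. Zap70, which spans chr1:36761798-36782818 on the plus strand, was 0.26 ± 0.045 (edgeR adjusted p = 3.18e-05) with genipin, 0.26 ± 0.045 (edgeR adjusted p = 5.04e-05) with genipin+NAC and -0.14 ± 0.046 (edgeR adjusted p = 0.0126) with NAC. The fall with NAC was lost on the TPM scale, where the value was 0.062 (limma adjusted p = 0.313), or -0.087 relative to the median gene. It was also lost without normalization factors (-0.019, edgeR adjusted p = 0.725). Lck had 739.8, 727 and 736 CPM in the 3 genipin libraries, 696, 751 and 773 CPM with both compounds, 692, 675 and 677 CPM with NAC alone and 755, 789 and 777 CPM in vehicle. NAC libraries were the lowest, and genipin+NAC libraries overlapped those of genipin and of vehicle. Lck, at chr4:129548344-129573641 on the minus strand, was -0.18 ± 0.032 (edgeR adjusted p = 4.86e-05) with NAC, -0.065 ± 0.032 (edgeR adjusted p = 0.0947) with genipin+NAC and -0.076 ± 0.032 (edgeR adjusted p = 0.0480) with genipin. As TPM, Lck was 0.018 with NAC, 0.014 with genipin+NAC and 0.070 with genipin, none of them called by limma. Relative to the median gene on that scale these were -0.13, -0.038 and -0.023, all below 0 as on the TMM scale. The genipin call was also lost with the replicate block (edgeR adjusted p = 0.0525), with DESeq2, with RLE instead of TMM factors and with offsets for effective length. Without normalization factors the calls with genipin and with NAC were both lost (edgeR adjusted p = 0.775 and 0.0784). In 9 of the 12 analyses that left out a library the genipin call was lost as well. Those were without vehicle replicate 2 or 3, any genipin library, genipin+NAC replicate 2 or any NAC library (edgeR adjusted p of 0.0559 to 0.174).

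The adaptor Lat rose with NAC alone. Lat had 169, 169.9 and 176 CPM in the 3 genipin libraries, 151, 163 and 164 CPM with both compounds, 196, 198 and 188 CPM with NAC alone and 168, 170.0 and 163 CPM in vehicle. NAC libraries were above all others, and vehicle overlapped both genipin and genipin+NAC. Lat, at chr7:126363824-126369570 on the minus strand, was 0.22 ± 0.035 (edgeR adjusted p = 1.79e-05) with NAC, 0.041 ± 0.035 (edgeR adjusted p = 0.322) with genipin and -0.065 ± 0.035 (edgeR adjusted p = 0.124) with genipin+NAC. With TPM the genipin value was 0.18 and called (limma adjusted p = 7.28e-04), or 0.082 relative to the median gene. Without normalization factors it was called too (0.11, edgeR adjusted p = 0.00993). Thy1 had 1238, 1237 and 1279 CPM in the 3 genipin libraries, 1173, 1245 and 1231 CPM with both compounds, 917, 905 and 882 CPM with NAC alone and 1165, 1201 and 1197 CPM in vehicle. NAC libraries were the lowest and did not overlap any other group, whereas genipin+NAC overlapped genipin and vehicle. Thy1, at chr9:44043384-44048579 on the plus strand, was -0.40 ± 0.028 (edgeR adjusted p = 1.11e-10) with NAC and 0.034 ± 0.028 (edgeR adjusted p = 0.313) with genipin+NAC. The genipin+NAC value was called with TPM (0.089, limma adjusted p = 0.0210), or 0.037 relative to the median gene. It was also called without normalization factors (0.075, edgeR adjusted p = 0.0223). With genipin it was 0.075 ± 0.028 (edgeR adjusted p = 0.0265), a call lost without vehicle replicate 1 or genipin replicate 3 (edgeR adjusted p = 0.107 and 0.109), and also without the filter on low counts or with offsets for effective length.

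Whether the compounds together did what they did singly was asked with the interaction, the log2 effect of genipin in the presence of NAC minus its effect without NAC. Here 7 of the 10 genes were called, 5 with a positive and 2 with a negative interaction, while 51.4% of all genes were called (27.4% positive and 24.0% negative). On the TPM scale the calls were 3 positive and 4 negative, and without normalization factors 4 and 4, where 50.5% and 54.4% of all genes were called. Cd3g alone reached 1.5-fold, where 20.2% of all genes did. Cd3g and Cd3d had the largest positive values of the 10. The interaction was 0.69 ± 0.038 (edgeR adjusted p = 1.71e-12) for Cd3g, 0.53 ± 0.043 (edgeR adjusted p = 1.00e-09) for Cd3d and 0.31 ± 0.043 (edgeR adjusted p = 3.19e-06) for Cd3e. For Cd3g, the sum of the separate effects was -0.19 on the log2 scale while the measured change with both compounds was 0.50. Thy1 (0.36 ± 0.040, edgeR adjusted p = 1.62e-07) and Lck (0.20 ± 0.046, edgeR adjusted p = 0.00116) were also positive. Lat (-0.32 ± 0.050, edgeR adjusted p = 1.25e-05) and Cd247 (-0.17 ± 0.045, edgeR adjusted p = 0.00316) were negative. The rise of Lat with NAC alone and that of Cd247 with genipin alone were not called with both compounds.

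For the CD8 chains no interaction was called. Cd8a had -0.022 ± 0.037 (edgeR adjusted p = 0.649) with a 95% interval of -0.095 to 0.050, and Cd8b1 had -0.023 ± 0.041 (edgeR adjusted p = 0.665) with an interval of -0.10 to 0.057. The sum of the separate effects was 0.54 for Cd8a and 0.62 for Cd8b1, and the measured changes with both compounds were 0.51 and 0.60. This depends on the scale. Without normalization factors edgeR called both negative, at -0.17 for each (edgeR adjusted p = 7.70e-04 and 0.00126). On the TPM scale, where the median interaction of all genes was -0.19, limma called both negative at -0.30 and -0.29 (limma adjusted p = 5.33e-05 and 3.11e-05), and relative to that median they were -0.11 and -0.10. Cd3g and Cd3d kept positive calls on that scale, at 0.41 and 0.25, or 0.60 and 0.44 relative to the median. The calls of Cd3e (0.019, limma adjusted p = 0.775) and Lck (-0.074, limma adjusted p = 0.137) were lost there, and relative to the median they were 0.21 and 0.12. Zap70 was not called (0.13 ± 0.064, edgeR adjusted p = 0.0939), but without genipin+NAC replicate 1 it was 0.21 (edgeR adjusted p = 2.05e-05). With all libraries it was called positive without the filter on low counts and with a filter at a mean of 5 CPM.

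**Figure D3:**
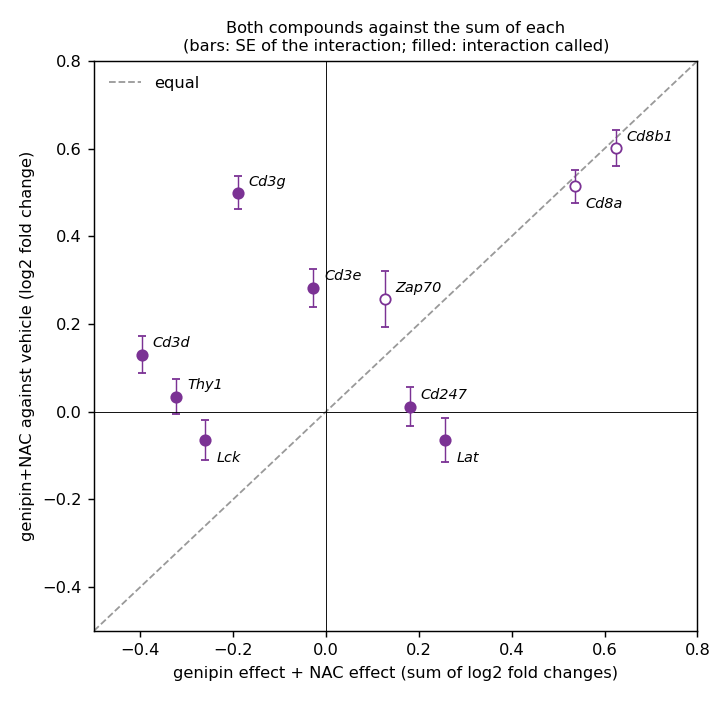
Log2 change with genipin+NAC against vehicle (y axis) beside the sum of the changes with genipin and with NAC alone (x axis), 1 point per gene. Bars are the SE of the interaction and filled points were called. Cd3g lies far above the dashed line of equality, and Cd8a and Cd8b1 lie on it on this TMM scale, though not on the TPM scale.

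Setting genipin+NAC against each compound alone gave the effect of each compound in the presence of the other. Against NAC, 6 genes were higher and 2 lower, where 53.1% of all genes were called (26.6% higher and 26.5% lower). On the TPM scale 5 were higher and 4 lower, where 46.5% of all genes were called. Cd3g alone reached 1.5-fold, where 14.2% of all genes did. It was 0.80 ± 0.027 (edgeR adjusted p = 5.13e-16), Cd3e was 0.53 ± 0.031 (edgeR adjusted p = 4.29e-12) and Cd3d was 0.44 ± 0.030 (edgeR adjusted p = 6.16e-11). Thy1 (0.43), Zap70 (0.40) and Lck (0.12) were higher too, although Lck was at -0.0044 and not called on the TPM scale, or 0.094 relative to the median gene there. Without normalization factors Lck was not called either (0.040, edgeR adjusted p = 0.288). Cd8a (-0.28) and Lat (-0.28) were lower, and Cd247 and Cd8b1 were not called on the TMM scale. Cd247 was called lower with TPM (-0.14, limma adjusted p = 0.00165), or -0.039 relative to the median gene. Without normalization factors Cd247 was called lower as well (-0.080, edgeR adjusted p = 0.0326). Without genipin+NAC replicate 1, Cd8b1 was called higher at 0.072 (edgeR adjusted p = 0.0214). On the TPM scale with all libraries Cd8b1 was instead called lower, at -0.085 (limma adjusted p = 0.0136), or 0.013 relative to the median gene.

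Against genipin, genipin+NAC had 4 genes higher and 2 lower, where 69.3% of all genes were called (35.0% higher and 34.3% lower). On the TPM scale and without normalization factors 4 were higher and 3 lower, where 61.3% and 69.4% of all genes were called. Thy1, not called on the TMM scale (-0.041, edgeR adjusted p = 0.208), was lower with TPM (-0.073, limma adjusted p = 0.0394), or -0.029 relative to the median gene. It was also lower without normalization factors (-0.065, edgeR adjusted p = 0.0374). Cd8a (0.77 ± 0.026, edgeR adjusted p = 1.92e-16), Cd8b1 (0.53 ± 0.029, edgeR adjusted p = 7.15e-13), Cd3g (0.38 ± 0.027, edgeR adjusted p = 3.67e-11) and Cd3d (0.21 ± 0.030, edgeR adjusted p = 1.85e-06) were higher. Cd8a alone reached 1.5-fold, where 28.9% of all genes did. Cd247 (-0.16) and Lat (-0.11) were lower, and the Lat call was lost without genipin replicate 3 (edgeR adjusted p = 0.0548) or with the filter at a mean of 5 CPM and shrank to -0.069 without genipin+NAC replicate 1. Without that last library, Cd3e (0.071, edgeR adjusted p = 0.0294) and Zap70 (0.068, edgeR adjusted p = 0.0223) were called higher, whereas with all libraries Zap70 was -0.0079. Cd3e was also called higher with all libraries and the filter at a mean of 5 CPM. NAC alone against genipin alone differed for all 10 genes, 3 higher and 7 lower, where 71.8% of all genes were called (36.6% higher and 35.2% lower). Cd8a alone reached 1.5-fold, where 32.9% of all genes did. It was 1.06 ± 0.026 (edgeR adjusted p = 7.44e-19) there, Cd8b1 was 0.47 ± 0.029 (edgeR adjusted p = 3.40e-12) and Lat was 0.17 ± 0.035 (edgeR adjusted p = 1.36e-04). The 7 lower genes ran from -0.11 for Lck to -0.47 for Thy1. The Lck call was lost on the TPM scale, where it was -0.11 relative to the median gene. Without normalization factors that call was lost too (-0.053, edgeR adjusted p = 0.129). These comparisons share libraries with those against vehicle, so their values are not independent of them.

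Levels between genes are compared per transcript length, as TPM. In every group Thy1 and Cd3g were the 2 most abundant and Zap70 the least. Thy1 was at 1209 ± 32.6 TPM in genipin libraries, 1149.8 ± 28.6 TPM with both compounds, 950.1 ± 24.7 TPM with NAC alone and 1081 ± 2.47 TPM in vehicle (SD, n = 3 each). Cd3g was at 1049 ± 7.06, 1304 ± 31.1, 832 ± 22.3 and 889.8 ± 19.2 TPM in the same groups, and was above Thy1 in the genipin+NAC group only. Zap70 was at 162 ± 0.968, 153 ± 13.7, 127 ± 0.164 and 122 ± 0.665 TPM. In vehicle the order was Thy1, Cd3g, Lck, Cd3d, Cd3e, Cd8b1, Cd8a, Lat, Cd247 and Zap70, with no neighbours overlapping. Cd8a stood at place 9 in genipin libraries, at place 7 with both compounds, at place 6 with NAC and at place 7 in vehicle. Neighbours that overlapped were Cd247 and Zap70 with genipin+NAC, and Cd3d with Cd8b1 and Lat with Cd3e with NAC.

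Ratios between partner transcripts within a library do not depend on the scaling of libraries. Cd8a over Cd8b1 was 0.636 ± 0.0122 in genipin libraries, 0.747 ± 0.0275 with both compounds, 0.935 ± 0.00283 with NAC alone and 0.794 ± 0.00812 in vehicle (SD, n = 3 each), with no overlap between groups. Cd3g over Cd3e was 3.24 ± 0.0546 in genipin libraries, 4.12 ± 0.0932 with both compounds, 3.43 ± 0.126 with NAC alone and 3.53 ± 0.114 in vehicle, and genipin+NAC alone stood clear of every other group. Cd3d over Cd3e was 1.38 ± 0.0283 in genipin libraries, 1.55 ± 0.0548 with both compounds, 1.63 ± 0.0326 with NAC alone and 1.71 ± 0.0293 in vehicle, without overlap. Cd247 over Cd3e was 0.563 ± 0.00950 in genipin libraries, 0.498 ± 0.0264 with both compounds, 0.715 ± 0.0369 with NAC alone and 0.593 ± 0.0103 in vehicle, also without overlap. Lck over Zap70 was 2.94 ± 0.0318 in genipin libraries, 3.00 ± 0.166 with both compounds, 3.61 ± 0.0433 with NAC alone and 3.72 ± 0.0743 in vehicle, and here genipin overlapped genipin+NAC and NAC overlapped vehicle. Partner chains that moved in the same direction could still differ in size of change, as Cd8a and Cd8b1 did with NAC.

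**Figure D4:**
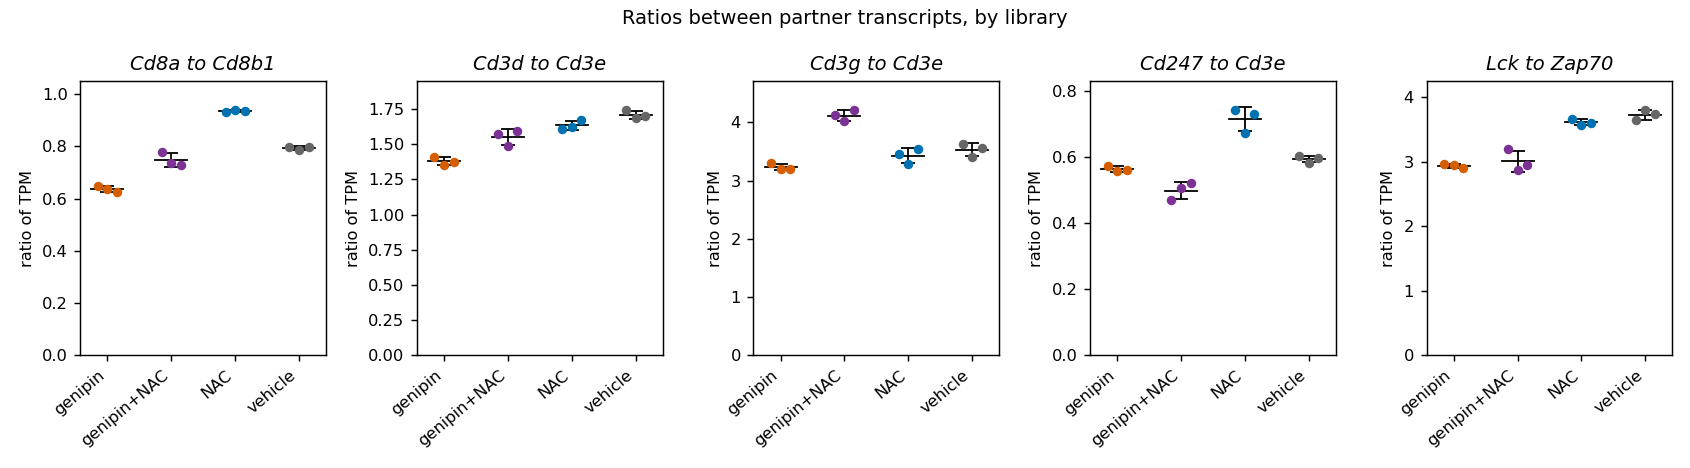
TPM ratio between partner genes in each library (points, 3 per group) with the mean and SD as black bars and y axes from 0. The ratio of Cd8a to Cd8b1 was lowest in genipin libraries (0.636) and highest with NAC alone (0.935).

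Genes with the most similar pattern were sought among 9346 protein-coding genes with a mean of at least 5 CPM, by Pearson's r of log2 CPM over the 12 libraries, which fall into 4 groups. For Cd8a they were Tcf7 (r = 0.997), which encodes the transcription factor TCF-1, and Aldh2 (r = 0.996), a mitochondrial aldehyde dehydrogenase. Tcf7 was at 3.02 CPM in genipin libraries, 33.3 CPM with both compounds, 88.0 CPM with NAC alone and 6.60 CPM in vehicle. For Cd3g they were Dixdc1 (r = 0.991) and Pdcd1 (r = 0.983), the inhibitory receptor PD-1. Pdcd1 was at 119 CPM in genipin libraries, 251 CPM with both compounds, 44.1 CPM with NAC alone and 70.5 CPM in vehicle. For Thy1 they were Grk6 (r = 0.993) and Prf1 (r = 0.987), the gene of perforin, at 794 CPM in genipin libraries, 795 CPM with both compounds, 332 CPM with NAC alone and 783 CPM in vehicle. The closest genes to Cd8b1 were Cds2 and Mgrn1, to Cd3d Arl6ip5 and Ggh, to Cd3e Tjp1 and Psd4, to Cd247 Gsk3a and Csnk1g2, to Lck Cyba and Def6, to Zap70 Furin and Arhgap45, and to Lat Rangap1 and Maea, with r from 0.945 to 0.992.

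The rest of the pathway was followed in 60 further genes in 6 lists, all of which passed the filter. With genipin+NAC, 44 of the 60 were higher and 10 lower than vehicle, with genipin 27 and 18, and with NAC 30 and 19, where 28.5% and 28.9%, 29.9% and 31.0%, and 29.6% and 30.0% of all genes were called higher and lower. The median log2 fold change of the 60 was 0.21 with genipin+NAC, 0.041 with genipin and 0.12 with NAC, beside 0.0048, -0.0079 and -0.0053 over all genes. With the filter at a mean of 5 CPM, the shares called in either direction were 65.7% for genipin+NAC, 69.8% for genipin and 66.5% for NAC. These list counts are on the TMM scale, and the TPM scale was not used for them.

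Among the receptor's antigen-binding chains, Trac, the constant part of the alpha chain, was 0.17 ± 0.034 (edgeR adjusted p = 2.44e-04) with genipin+NAC and was not called with genipin (0.016) or NAC (0.061). Trbc1 and Trbc2 encode nearly identical constant parts of the beta chain, so the split of reads between them is uncertain, and their values with genipin, -0.19 and 0.40, had opposite signs. Of 8 surface coreceptors and costimulators, 3 were higher and 3 lower with genipin, 6 higher and 2 lower with genipin+NAC, and 4 higher and 3 lower with NAC. Cd226, a costimulatory receptor, rose with genipin (0.67), genipin+NAC (1.14) and NAC (0.86), at means of 62.2, 86.4, 71.0 and 39.1 CPM with genipin, genipin+NAC, NAC and vehicle. Cd48, a ligand of SLAM-family receptors and of CD2, rose with genipin (0.47) and fell with genipin+NAC (-0.61) and NAC (-1.35). Slamf6 fell in all 3 comparisons (-0.92, -1.86 and -1.42 with genipin, genipin+NAC and NAC), at means of 4.38, 2.29, 3.11 and 8.37 CPM in the same 4 groups.

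Of 6 other proximal kinases, 3 were higher and 1 lower with genipin, 4 higher and none lower with genipin+NAC, and 3 higher and 2 lower with NAC. Fyn, a Src-family kinase like Lck, was 0.56 ± 0.031 (edgeR adjusted p = 1.53e-12) with genipin, 0.38 ± 0.031 (edgeR adjusted p = 1.01e-09) with genipin+NAC and 0.23 ± 0.031 (edgeR adjusted p = 2.09e-06) with NAC. Fyn had a negative interaction (-0.41). In the list of adaptors and effectors around Lat, with 15 genes, 4 were higher and 8 lower with genipin, 8 higher and 5 lower with genipin+NAC, and 7 higher and 5 lower with NAC. Rasgrp1, a Ras activator, rose with genipin+NAC (0.97) and with NAC (0.56), and Plcg1, phospholipase C gamma 1, did so too (0.60 and 0.41). Themis, an adaptor needed for T cell development, fell with genipin (-0.63) and with NAC (-0.62) and had an interaction of 1.31 ± 0.057 (edgeR adjusted p = 3.28e-14). Its means were 256, 415, 259 and 397 CPM with genipin, genipin+NAC, NAC and vehicle, so that the level with both compounds was close to vehicle.

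Of 18 negative regulators, 10 were higher and 4 lower with genipin, 15 higher and 2 lower with genipin+NAC, and 9 higher and 7 lower with NAC. Ptpn6, the phosphatase SHP-1, was 0.99 ± 0.029 (edgeR adjusted p = 4.60e-17) with genipin, Ptpn22, a phosphatase of Lck and Zap70, was 0.46 ± 0.028 (edgeR adjusted p = 1.21e-11) with genipin+NAC, and Lime1, listed here although it is a transmembrane adaptor, was -0.85 ± 0.039 (edgeR adjusted p = 8.04e-14) with NAC. The interaction was 0.96 for Ptpn22, 0.97 for Lime1 and -0.62 for Ptpn6. Of 10 genes of the calcium, NFAT and CBM branch, which lies under Lat, 6 were higher and 1 lower with genipin, 8 higher and 1 lower with genipin+NAC, and 6 higher and 2 lower with NAC. Nfatc3, a calcium-dependent transcription factor, rose with genipin (0.36), genipin+NAC (0.45) and NAC (0.17), and Malt1, the protease of the CBM complex, rose with genipin+NAC (0.55) and had an interaction of 0.97.

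**Figure D5:**
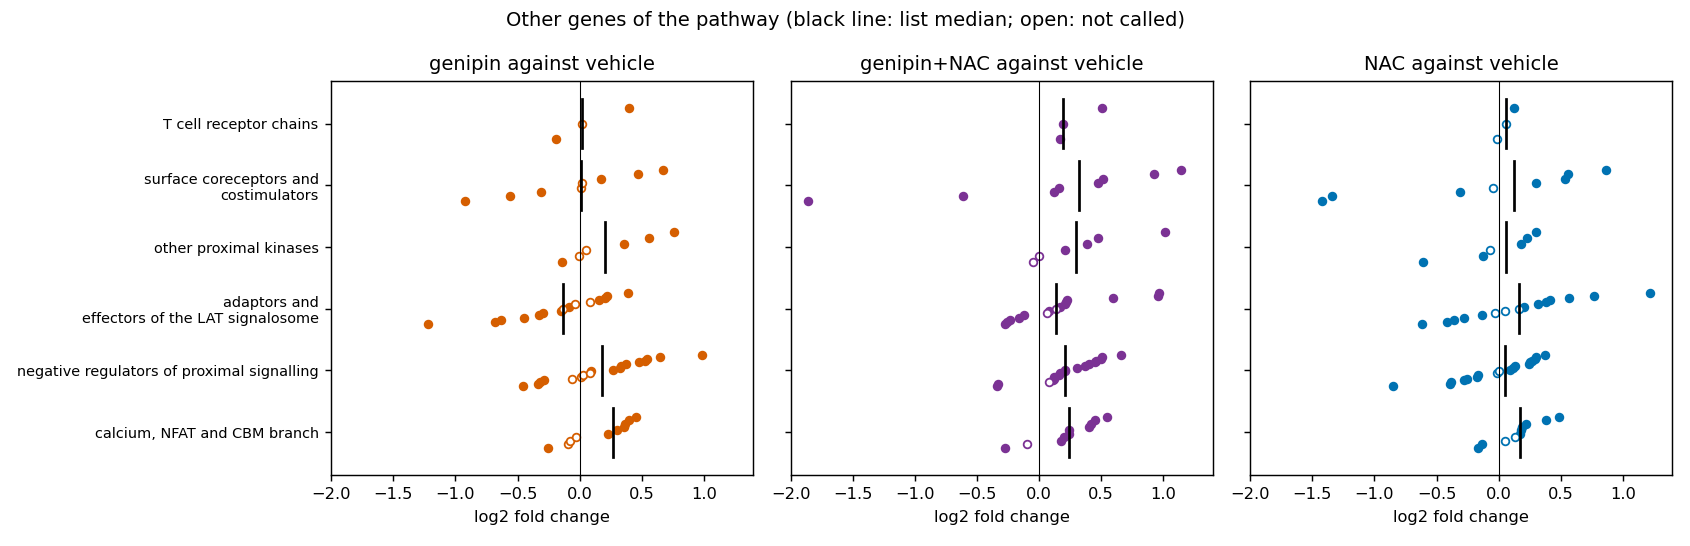
Log2 fold change against vehicle (x axis) of the 60 further pathway genes in their 6 lists (rows), for genipin, genipin+NAC and NAC, with open points where a gene was not called and a black line at each list's median. With genipin+NAC, 44 of the 60 points lie right of 0 and were called.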

How the data were processed

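RNA-seq was measured in 12 libraries of CD8 T cells in 4 groups of 3. Per the labels' protocols, a stranded kit for total RNA was used after ribosomal RNA had been removed, and inserts were read as pairs of 150 bases. The submitters' processing notes name bcl2fastq, cutadapt 1.18, STAR 2.7.0f, RSEM 1.3.1 and mm10. The authors deposited, for each gene and library, expected counts that need not be whole (RSEM estimates), TPM values, FPKM values (not used here) and effective lengths. All 55450 gene IDs matched GENCODE vM21, which gave the positions.

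Expected counts were rounded to whole numbers. Genes were filtered with filterByExpr (minimum count 10, minimum total 15), scaled with TMM and tested with edgeR 4.0.16's quasi-likelihood test in R 4.3.3, with 1 mean per group in a fit of all 12 libraries, Benjamini-Hochberg adjustment over the 13636 genes tested and a call at an adjusted p under 0.05. CPM are counts relative to the scaled library total, and the SE is the log2 fold change divided by the root of F. Alternatives used limma 3.58.1 and DESeq2 1.42.0. The limma test on log2(TPM + 1) was added after the data were seen, and its fold changes are on that scale.

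The 10 genes and all lists were chosen with earlier results of these data known. The further pathway genes named were the 4 with the smallest p in each list and comparison, or up to 2 where none passed. Some genes that this rule or the marker lists would name are not reported here. The most similar genes were the 2 with the highest Pearson's r of log2 CPM.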

Additional observations from a re-analysis of the deposited data

Results flagged for a closer look

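The log2 effect of genipin differed by the interaction test according to whether NAC was present for 7 of the 10 genes. Cd3g had 0.80 with NAC and 0.11 without it, a difference of 0.69 ± 0.038 (edgeR adjusted p = 1.71e-12). Cd3d had 0.44 with NAC and -0.084 without it, a difference of 0.53 ± 0.043 (edgeR adjusted p = 1.00e-09). Thy1 had 0.43 with NAC and 0.075 without it, a difference of 0.36 ± 0.040 (edgeR adjusted p = 1.62e-07). Cd3e had 0.53 with NAC and 0.22 without it, a difference of 0.31 ± 0.043 (edgeR adjusted p = 3.19e-06). Lck had 0.12 with NAC and -0.076 without it, a difference of 0.20 ± 0.046 (edgeR adjusted p = 0.00116). Lat had -0.28 with NAC and 0.041 without it, a difference of -0.32 ± 0.050 (edgeR adjusted p = 1.25e-05). Cd247 had -0.0012 with NAC and 0.17 without it, a difference of -0.17 ± 0.045 (edgeR adjusted p = 0.00316). On the TPM scale the differences for Cd3e and Lck were not called (0.019 and -0.074, limma adjusted p = 0.775 and 0.137). Relative to the median gene there they were 0.21 and 0.12. Without normalization factors that for Lck was not called.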

How the results depend on the processing

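Of 55 calls, 43 kept call and direction in every alternative that did not tighten the threshold. At an adjusted p under 0.01, 5 of the 10 genes were called with genipin against vehicle, where 50.8% of all genes were. With a change of at least 1.5-fold required the count was 0 there and 1 in each of the other 6 comparisons. The share of all genes that reached it was 19.3% there and 14.2% to 32.9% in the others. The log2 ratio of Cd247 to Cd3e, genipin minus vehicle, was -0.0493 by CPM and -0.0761 by TPM. No pairing of libraries by replicate number was seen. Over 18 same-numbered pairs the correlation of deviations ran from -0.105 to 0.0819, and own-number partners were the closest for 5 of 12 libraries. With so few libraries per group this cannot exclude that a number marks a shared mouse or culture. With the replicate block, 8 genes instead of 9 were called with genipin against vehicle, where 60.5% of all genes were. No other count of the 10 genes changed.

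Signs turned mainly on the TPM scale, for Cd3d (0.0529) and Lck (0.07) with genipin against vehicle, Lck (0.0181) and Zap70 (0.062) with NAC against vehicle, Lat (0.0055) and Lck (0.0137) with genipin+NAC against vehicle, Cd3e (-0.0338) and Lck (-0.0563) with genipin+NAC against genipin, Cd8b1 (-0.0854) and Lck (-0.0044) with genipin+NAC against NAC, and the interactions of Lck (-0.0745) and Zap70 (-0.1491). The median gene was itself off 0 on that scale. Relative to it, 11 of these 12 values kept the sign of the TMM scale, all but Lck for genipin+NAC against genipin (-0.012). Because TMM also puts the median gene near 0, this was largely built in and does not show which scale is right. Without normalization factors they turned for Cd8b1 (-0.0272) against NAC, Lck (-0.0132) against genipin and the interaction of Zap70 (-0.0133). With genipin+NAC against NAC, Cd247 was 0.0053 with the filter at 5 CPM, 0.0038 without a filter and 0.0045 when only those groups were fitted, and with NAC against vehicle it was -0.0003 without a filter. Zap70 was 0.0281 against genipin with the filter at 5 CPM. With libraries left out in turn, Cd247 ran from -0.018 to 0.031 for genipin+NAC against NAC, from -0.005 to 0.0447 for genipin+NAC against vehicle and from -0.0033 to 0.0295 for NAC against vehicle, while for genipin+NAC against genipin Lck ran from -0.022 to 0.0534 and Zap70 from -0.0501 to 0.0682. The cause of the turns was not tested, on the TPM scale or in the other settings.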
